A study of Mus musculus with 13 samples.

Results

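The mitosis genes described here are 43 named genes whose products carry a cell through chromosome segregation and division. They were chosen by symbol, and each was represented by the probe set (a group of short probes for a transcript) with the highest mean over all arrays. Of the 43 genes, 42 were measured, among 18194 genes in all. No probe set names Ccnb1, which encodes cyclin B1, as its single gene in the annotation used, and probe sets that name several genes were left out.

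The cells were CD8+ T cells with the transgenic P14 T cell receptor on a C57Bl/6 background, taken from wild-type mice or from BATF-/- mice and purified by magnetic removal of other cells. Batf encodes an AP-1 family transcription factor of lymphocytes. Naive cells were profiled on day 0, and stimulated cells after 3 days with plate-bound antibodies to CD3 and CD28 and with IL-2 at 100 U/ml. Naive cells were hybridised to 2 arrays for wild type and 3 for BATF-/-, and day 3 cells to 4 arrays for each genotype, and all carried the P14 receptor. The labels do not say whether the arrays of a group came from separate animals or cultures, so p-values measure the spread between these arrays, which may be technical. Day 3 cells differ from naive cells in stimulation and in time in culture. Naive arrays also held more RNA of several other cell types, as given below. These differences cannot be told apart, and the change on stimulation below means the difference between both states.

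Mitosis begins when the kinase Cdk1, bound to a cyclin, is switched on by Cdc25 phosphatases. The kinetochore, built on centromeres, then ties chromosomes to the microtubules of the spindle, and the spindle checkpoint holds back Cdc20 and the anaphase-promoting complex until every chromosome is attached. That complex marks cyclin B and securin for destruction, sister chromatids separate, and proteins of the spindle midzone complete the cut between the daughter cells. Most of these genes are transcribed late in the cell cycle and are kept silent in resting cells by the DREAM complex, which acts through a promoter element called the cell cycle homology region. Naive T cells rest outside the cell cycle, and activated CD8+ T cells are among the fastest dividing cells of adult mammals.

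Promoter sequence was read for the members because these genes moved as a block. RefSeq windows of assembly GRCm38.p6, from 250 bases before to 50 bases after the annotated start, were given for 34 of the 43 members. Both strands were searched for the cell cycle homology region, TTTGAA, and for the CCAAT box, ATTGG, which is bound by the factor NF-Y. A match to one motif is never a match to the other, although neighbouring matches may share end bases, and a match is a description of the letters only. The sequences below are the 110 bases before the start of 6 members that hold both motifs there, and of Pttg1, which holds neither. Each is printed 5′ to 3′ on the strand of its gene, with matches to either motif, on either strand, in capitals.
Cdk1 (chr10:69352913-69353022, minus strand): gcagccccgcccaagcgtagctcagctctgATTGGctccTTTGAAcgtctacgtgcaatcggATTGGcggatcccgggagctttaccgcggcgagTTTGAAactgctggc
Cdc20 (chr4:118437344-118437453, minus strand): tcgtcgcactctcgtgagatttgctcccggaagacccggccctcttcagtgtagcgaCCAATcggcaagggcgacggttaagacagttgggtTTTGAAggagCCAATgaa
Ube2c (chr2:164769819-164769928, plus strand): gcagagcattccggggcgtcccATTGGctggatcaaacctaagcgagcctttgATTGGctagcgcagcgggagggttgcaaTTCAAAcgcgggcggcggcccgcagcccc
Kif11 (chr19:37376272-37376381, plus strand): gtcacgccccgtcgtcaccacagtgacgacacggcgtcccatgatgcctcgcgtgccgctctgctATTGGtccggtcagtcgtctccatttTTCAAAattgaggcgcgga
Top2a (chr11:99024190-99024299, minus strand): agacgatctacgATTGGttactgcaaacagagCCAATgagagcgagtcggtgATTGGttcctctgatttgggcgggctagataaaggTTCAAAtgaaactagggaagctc
Bub3 (chr7:131560260-131560369, plus strand): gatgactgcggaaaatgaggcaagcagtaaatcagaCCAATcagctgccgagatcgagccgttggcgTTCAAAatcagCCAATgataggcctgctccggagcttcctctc
Pttg1 (chr11:43425982-43426091, minus strand): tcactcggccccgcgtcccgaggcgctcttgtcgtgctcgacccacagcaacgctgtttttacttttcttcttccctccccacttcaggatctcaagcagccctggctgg

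The cell cycle homology region was present in the window of 23 of the 34 members (67.6%), against 20.2% of the 27025 genes with a window. Within 50 bases on either side of the start it was present in 21 members (61.8%), against 5.72% of all genes. The CCAAT box was found in 26 members (76.5%) and in 41.1% of all genes. Both motifs stood in the windows of 21 members (61.8%), against 7.97% of all genes, and both lay within 50 bases of the start in 15 members (44.1%), against 0.921%. A variant with the letters TTCGAA was present in 4 members (11.8%) and in 1.8% of all genes. Members without TTTGAA in the window were Birc5, Bub1, Ccnb1, Cdc25b, Cenpe, Mad2l1, Melk, Nek2, Nuf2, Nusap1 and Pttg1. Of these, Bub1, which has the variant, and Nusap1 were among the members with the largest changes on stimulation, described below. The wild-type change on stimulation had a median of 3.03 (log2; from 0.61 to 3.45) over the 23 members with the region and of 3.15 (from -0.27 to 3.85) over the 10 measured members without it, so that these ranges overlapped.

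**Figure D1:**
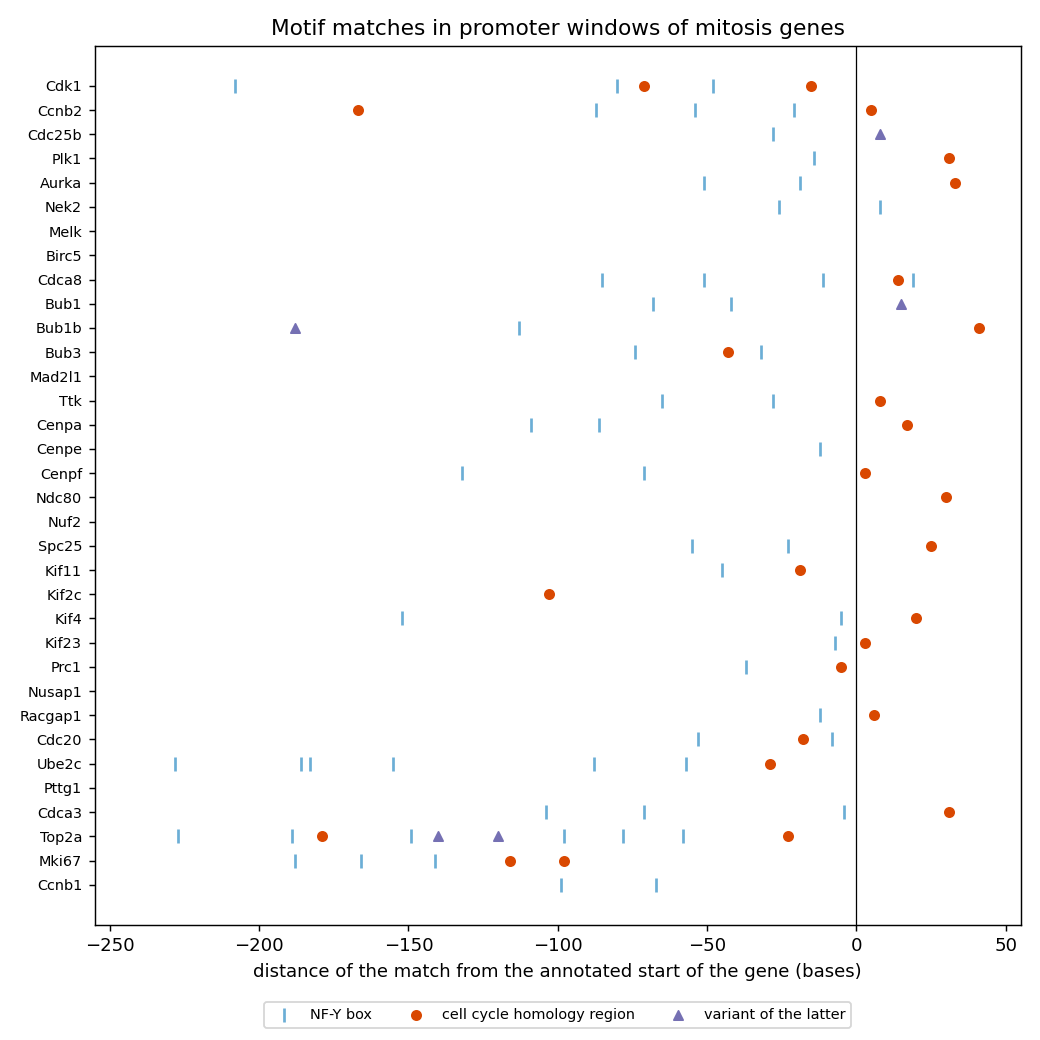
Position of motif matches in the RefSeq promoter windows of the 34 matched members, in bases from the annotated start (0, vertical line); where a gene has more than 1 window, the first by coordinate is drawn. Orange circles mark the cell cycle homology region, triangles its variant and blue ticks the CCAAT box (NF-Y box); for 21 members a circle lies within 50 bases of the start, and 6 members have no match.

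Batf itself followed the labels. It measured 9.19 and 9.36 (log2 intensity) on the wild-type naive arrays and 5.60, 6.06 and 5.94 on the BATF-/- naive arrays. At day 3 it measured 8.63, 8.80, 8.83 and 9.19 in wild type and 6.77, 5.56, 5.61 and 6.00 in BATF-/- cells. The genotypes did not overlap in either state, with differences of -3.41 ± 0.29 (SE) in naive cells and -2.88 ± 0.23 at day 3 (limma adjusted p = 0.000321 and 6.9e-05). Markers of CD8 T cells were high on all arrays, as given with the naive arrays below.

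Nearly the whole set was higher in day 3 than in naive cells, and by large amounts, in both genotypes. Between naive and day 3 wild-type cells, 41 of 42 members rose and 1, Pttg1, fell (limma, adjusted p below 0.05), where 22.4% of all genes rose and 23% fell. In BATF-/- cells the same contrast also gave 41 rises and a fall of Pttg1, where 23.8% of all genes rose and 23.2% fell. The median log2 change was 3.11 in wild type, with a range from -0.27 to 3.87, and 2.81 in BATF-/- cells, with a range from -0.27 to 3.48, against 0.05 over all genes in each. Without BATF-/- naive replicate 1, which is described below, BATF-/- cells again gave 41 rises and 1 fall, with a median of 3.27. At least 4-fold rises were reached by 37 members in wild type and by 36 in BATF-/- cells, against 2.08% and 1.73% of all genes. These sizes depend on the choice of the brightest probe set. When the probe sets of each gene were averaged, 31 and 27 members rose at least 4-fold, with medians of 2.62 and 2.44. Without BATF-/- naive replicate 2, 32 members rose at least 4-fold in BATF-/- cells. Naive and day 3 arrays did not overlap for any of the 42 members in either genotype, as was the case for 58.3% of all genes in wild type and 48.2% in BATF-/- cells.

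**Figure D2:**
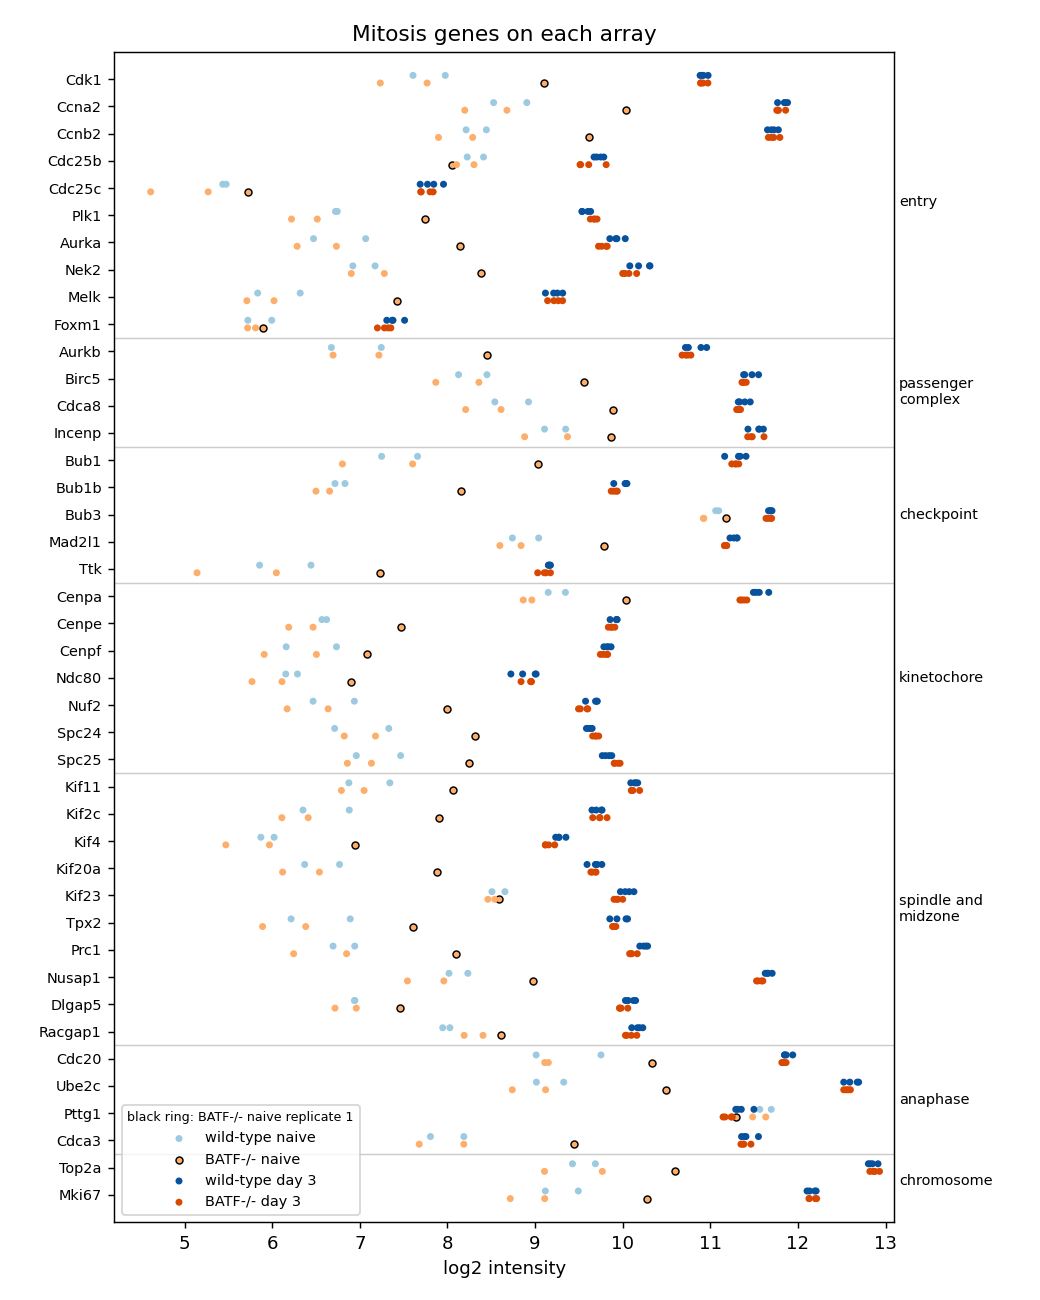
Log2 intensity of the 42 measured mitosis genes (rows, grouped by role) on each of the 13 arrays, with 1 point per array: light blue for wild-type naive, light orange for naive BATF-/- cells, dark blue for stimulated wild-type cells and dark orange for stimulated BATF-/- cells. Apart from Pttg1 the dark points lie to the right of the light points in every row, dark blue and dark orange lie together, and the ringed point, BATF-/- naive replicate 1, is the highest naive array for 38 members.

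The 10 measured genes of mitotic entry all rose in both genotypes, with medians of 3.12 in wild type and 2.77 in BATF-/- cells. They are the kinases Cdk1, Plk1, Aurka, Nek2 and Melk, the Cdk1 partners Ccna2 and Ccnb2, the phosphatases Cdc25b and Cdc25c, and Foxm1, a transcription factor for late cell cycle genes. Ccnb2 (cyclin B2) had the largest rise of this group in wild type. Ccnb2 measured 8.21 and 8.44 (log2) on wild-type naive and 9.62, 7.90 and 8.29 on BATF-/- naive arrays. At day 3 Ccnb2 measured 11.70, 11.78, 11.73 and 11.65 in wild type and 11.79, 11.70, 11.66 and 11.72 in BATF-/- cells. Its rise was 3.38 ± 0.32 (SE) in wild type and 3.12 ± 0.28 in BATF-/- cells (adjusted p = 1.31e-06 and 8.15e-07), and the day 3 arrays of both genotypes were interleaved. Cdk1 behaved likewise, with 7.61 and 7.98 on wild-type naive, 9.10, 7.23 and 7.77 on BATF-/- naive arrays and, at day 3, 10.88, 10.92, 10.97 and 10.90 in wild type and 10.97, 10.92, 10.89 and 10.89 in BATF-/- cells. The 8 day 3 values of Cdk1 lay within 0.1 of each other, whereas its naive values were spread widely, with BATF-/- naive replicate 1 the highest.

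Cdc25b, a phosphatase that activates Cdk1 at the centrosome, had the smallest rise of the group. Cdc25b measured 8.23 and 8.41 on wild-type naive and 8.05, 8.30 and 8.10 on BATF-/- naive arrays. At day 3 it measured 9.70, 9.67, 9.75 and 9.78 in wild type and 9.81, 9.61, 9.52 and 9.51 in BATF-/- cells, a rise of 1.41 ± 0.10 and 1.46 ± 0.09. It was one of the 4 members that were not highest in BATF-/- naive replicate 1. Foxm1 rose by a similar amount on the probe set used, 1.53 ± 0.09 and 1.48 ± 0.08. Its other probe sets changed by 2.66, 1.4 and 0.05 in wild type and by 2.55, 1.1 and 0.1 in BATF-/- cells, the last being of low intensity. The related phosphatase Cdc25c rose by 2.36 ± 0.21 and 2.56 ± 0.18. On its other probe set the rise was 3.03 in wild type and 2.74 in BATF-/- cells, so the order of the genotypes depended on the probe set.

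All 4 genes of the chromosomal passenger complex, which corrects faulty attachments at the centromere and then moves to the midzone, rose in both genotypes. Aurkb, its kinase, had the largest wild-type change of all 42 members. It measured 6.68 and 7.25 on wild-type naive and 8.45, 6.70 and 7.22 on BATF-/- naive arrays, and 10.89, 10.72, 10.96 and 10.75 in wild type and 10.78, 10.68, 10.74 and 10.72 in BATF-/- cells at day 3. The change of Aurkb was 3.87 ± 0.33 in wild type and 3.28 ± 0.29 in BATF-/- cells (adjusted p = 6.15e-07 and 8.05e-07), and the difference between these changes did not pass (-0.59 ± 0.44, adjusted p = 0.661). Incenp, the scaffold of the complex, changed least. Incenp went from 9.11 and 9.35 in naive wild-type cells to 11.56, 11.61, 11.55 and 11.43 at day 3 (2.31 ± 0.19). In BATF-/- cells it went from 9.86, 8.88 and 9.37 to 11.61, 11.47, 11.43 and 11.48 (2.12 ± 0.17). Birc5 (survivin) and Cdca8 (borealin), which bring the complex to chromosomes, rose by 3.16 and 2.64 in wild type and by 2.79 and 2.42 in BATF-/- cells.

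All 5 spindle checkpoint genes rose in both genotypes, Bub1 by far more than Bub3. Bub1, a checkpoint kinase at the kinetochore, measured 7.25 and 7.66 on wild-type naive, 9.03, 6.80 and 7.60 on BATF-/- naive arrays and, at day 3, 11.41, 11.32, 11.34 and 11.16 in wild type and 11.28, 11.24, 11.32 and 11.30 in BATF-/- cells. Its rise was 3.85 ± 0.40 in wild type and 3.48 ± 0.35 in BATF-/- cells (adjusted p = 3.27e-06 and 2.5e-06). Bub3, the adaptor that brings Bub1 and Bub1b to the kinetochore, measured 11.06 and 11.10 on wild-type naive and 11.18, 10.92 and 10.93 on BATF-/- naive arrays. At day 3 it measured 11.70, 11.68, 11.69 and 11.66 in wild type and 11.69, 11.66, 11.64 and 11.70 in BATF-/- cells, a rise of only 0.61 ± 0.08 and 0.66 ± 0.07 that still passed (adjusted p = 1.54e-05 and 2.02e-06). Bub3 has 5 probe sets, and of the other 3 above the dim limit (log2 4.35, below which lie the lowest 40% of probe sets), 1 rose by 0.67 and 2 changed by -0.03 and -0.17 in wild type. Bub1b, Ttk (Mps1, the kinase that starts checkpoint signalling) and Mad2l1 (Mad2, which binds Cdc20) rose by 3.23, 3.01 and 2.38 in wild type and by 2.80, 2.97 and 2.10 in BATF-/- cells.

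The 7 genes of the centromere and kinetochore rose in both genotypes, each at least 4-fold, with medians of 2.68 in wild type and 2.62 in BATF-/- cells. Cenpf, a large protein of the outer kinetochore, had the largest rise in wild type. In wild type it went from 6.16 and 6.73 to 9.84, 9.82, 9.87 and 9.79 (3.38 ± 0.23). In BATF-/- cells it went from 7.09, 5.91 and 6.51 to 9.82, 9.78, 9.75 and 9.83 (3.29 ± 0.21). Cenpa, the histone H3 variant that marks the centromere, rose least, by 2.31 ± 0.24 and 2.09 ± 0.21. Its naive values were 9.15 and 9.35 in wild type and 10.04, 8.87 and 8.96 in BATF-/- cells. The 4 subunits of the Ndc80 complex, which grips microtubules, rose by 2.68 (Ndc80), 2.97 (Nuf2), 2.60 (Spc24) and 2.61 (Spc25) in wild type and by 2.67, 2.62, 2.25 and 2.52 in BATF-/- cells. The kinesin Cenpe rose by 3.32 and 3.16.

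Motors and other proteins of the spindle and midzone, 10 genes, all rose in both genotypes, with medians of 3.13 and 2.94. Nusap1, which bundles spindle microtubules near chromosomes, had the largest rise. Nusap1 measured 8.02 and 8.23 on wild-type naive, 8.98, 7.54 and 7.96 on BATF-/- naive arrays and, at day 3, 11.65, 11.66, 11.71 and 11.63 in wild type and 11.60, 11.53, 11.58 and 11.55 in BATF-/- cells (3.53 ± 0.26 and 3.40 ± 0.23). Kif23, the kinesin of centralspindlin, rose least. Kif23 went from 8.66 and 8.51 to 9.97, 10.13, 10.07 and 10.03 in wild type (1.47 ± 0.07) and from 8.58, 8.46 and 8.54 to 10.00, 9.95, 9.90 and 9.93 in BATF-/- cells (1.42 ± 0.06). Its 5 naive values lay close together. Kif11, which pushes spindle poles apart, rose by 3.03 and 2.83, and Prc1, which crosslinks midzone microtubules, by 3.43 and 3.05. Kif2c, Kif20a, Kif4, Tpx2 and Dlgap5 rose by 3.10 to 3.42 in wild type and by 2.82 to 3.27 in BATF-/- cells.

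The genes of anaphase and mitotic exit held the single fall. Ube2c, the ubiquitin-conjugating enzyme of the anaphase-promoting complex, went from 9.02 and 9.33 to 12.52, 12.69, 12.59 and 12.68 in wild type (3.45 ± 0.33). In BATF-/- cells it went from 10.50, 8.74 and 9.12 to 12.57, 12.60, 12.52 and 12.55 (3.11 ± 0.29). Cdc20, the activator of the complex, rose by 2.49 and 2.31, and Cdca3, an adaptor for the destruction of Wee1, by 3.43 and 2.95. Pttg1 (securin, which restrains the separase that opens cohesin) went the other way. In wild type it went from 11.56 and 11.70 in naive cells to 11.29, 11.35, 11.31 and 11.50 at day 3. In BATF-/- cells it went from 11.30, 11.63 and 11.48 to 11.25, 11.24, 11.17 and 11.15. The change was -0.27 ± 0.09 in wild type and -0.27 ± 0.08 in BATF-/- cells (adjusted p = 0.0305 and 0.0144), with no overlap between naive and day 3 arrays in either genotype. All 3 probe sets for Pttg1 were lower at day 3 in both genotypes, by 0.27 to 0.52 in wild type. The call in wild type was lost without wild-type naive replicate 2 (-0.20, adjusted p = 0.226) and without wild-type day 3 replicates 1 (-0.24, adjusted p = 0.0693), 2 (-0.26, adjusted p = 0.0558) and 3 (-0.25, adjusted p = 0.065). The call in BATF-/- cells was lost without naive replicate 2 (-0.19, adjusted p = 0.0775). Over the 22 alternatives the adjusted p ranged from 0.00123 to 0.226 in wild type and from 0.000164 to 0.0775 in BATF-/- cells.

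Top2a, the topoisomerase that disentangles sister chromatids, measured 9.43 and 9.69 on wild-type naive, 10.60, 9.11 and 9.77 on BATF-/- naive arrays and, at day 3, 12.85, 12.91, 12.80 and 12.82 in wild type and 12.93, 12.86, 12.82 and 12.88 in BATF-/- cells (3.29 ± 0.27 and 3.05 ± 0.24). Mki67, the Ki-67 antigen that coats mitotic chromosomes and is a common marker of cycling cells, went from 9.12 and 9.49 to 12.19, 12.21, 12.10 and 12.13 in wild type (2.85 ± 0.29). In BATF-/- cells Mki67 went from 10.28, 8.72 and 9.11 to 12.13, 12.20, 12.13 and 12.21 (2.80 ± 0.26). In bulk RNA such a rise does not separate more cycling cells from more of this RNA per cell, and the 2 cannot be told apart here.

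**Figure D3:**
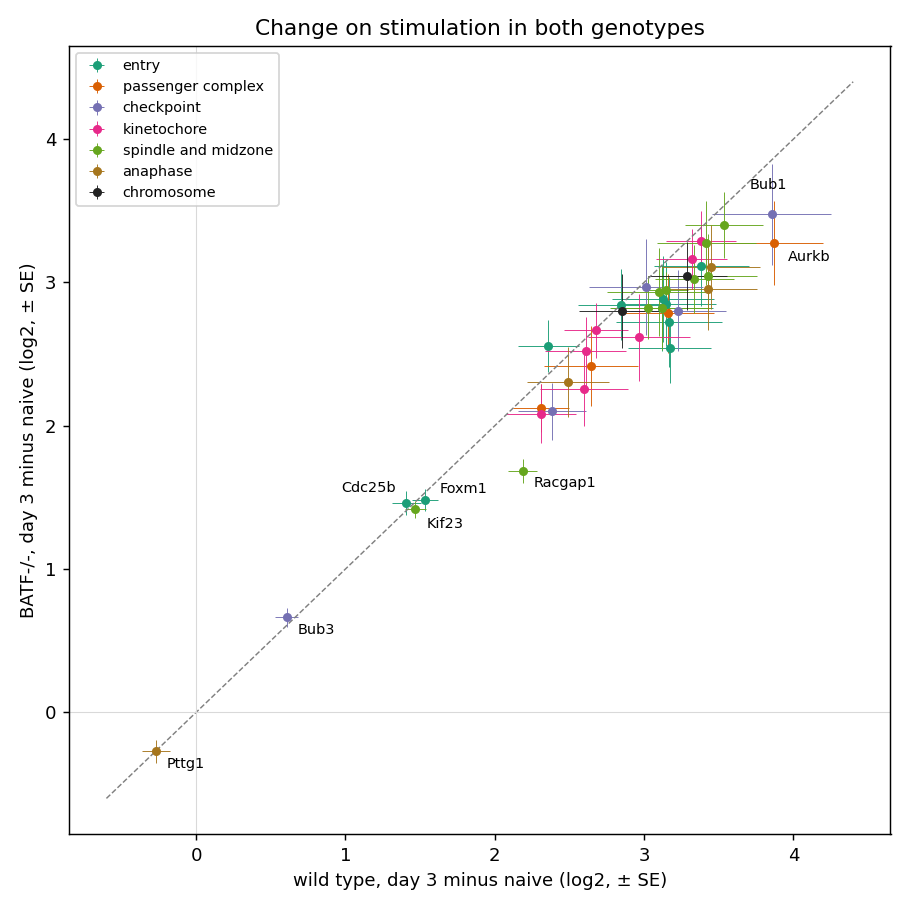
Change from naive to day 3 (log2) of the 42 members in wild type (horizontal axis) and BATF-/- cells (vertical axis), coloured by role, with bars of 1 SE from the limma fit; the dashed line marks equal change. Most members lie between 2 and 4 on both axes and slightly under the line. Nek2, Aurkb and Racgap1 lie farthest under it (differences of -0.63, -0.59 and -0.50), and Pttg1 is the single member below 0.

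At day 3, a genotype difference was called for no mitosis gene. Of 42 members 0 passed (limma, adjusted p below 0.05; 0 at an unadjusted p under 0.05, against 12.6% of all genes), where 1.37% of all genes passed. The differences between BATF-/- and wild type had a median of -0.05 (log2; 0.01 over all genes), with a range from -0.19 (Cenpa) to 0.11 (Spc25). The spread in that fit is pooled with the more variable naive arrays, and it gave a median half-width of the 95% interval of 0.50. With the 8 day 3 arrays alone, 0 members passed as well, where 3.79% of all genes did, and 9 (21.4%, of which 8 lower and 1 higher in BATF-/- cells) had an unadjusted p under 0.05, against 18% of all genes. The lowest adjusted p was then 0.0894, for Cenpa, and the median half-width was 0.11.

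Those narrower intervals give the size of the genotype difference against the spread between these day 3 arrays, which may be technical. Each is a 95% interval for a single gene, so their extremes are not a joint bound. These intervals cover only the probe set used for each gene. Over all 42 members they reached from -0.30 (Cenpa), which is 18.9% lower intensity, to 0.21 (Spc25), which is 15.9% higher. The genotypes lay further apart on another Kif23 probe set above the dim limit, averaging 7.17 for wild type against 6.73 for BATF-/- at day 3. When the probe sets of each gene were averaged, no member passed at day 3, with 32 lower and 10 higher in BATF-/- cells. Cenpa measured 11.56, 11.49, 11.67 and 11.52 in wild type and 11.42, 11.36, 11.34 and 11.39 in BATF-/- cells, so that the genotypes did not overlap, at a difference of -0.19 (95% interval -0.30 to -0.07 with the day 3 arrays alone). This is 12.1% lower intensity. Pttg1 also had all BATF-/- day 3 values below all wild-type values, at -0.16 (-0.29 to -0.03). In the other direction, Spc25 measured 9.84, 9.77, 9.88 and 9.80 in wild type and 9.97, 9.95, 9.91 and 9.90 in BATF-/- cells, 0.11 (0.01 to 0.21) or 7.85% higher, without overlap. Plk1, the polo-like kinase of centrosome maturation, measured 9.54, 9.63, 9.54 and 9.60 in wild type and 9.68, 9.67, 9.71 and 9.63 in BATF-/- cells, a difference of 0.10 (-0.01 to 0.20), and its groups overlapped.

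Small differences in 1 direction were more frequent than in the other. BATF-/- was the lower genotype for 33 members and the higher for 9, whereas 8101 of 18194 genes were lower. Groups did not overlap for 9 members, against 12.8% of all genes. Of these 9, 7 were lower (Cenpa, Pttg1, Aurka, Prc1, Kif4, Mad2l1 and Nusap1; 5.34% of all genes) and 2 higher (Spc24 and Spc25; 7.44% of all genes). Members share their source cells and rise together, so their directions are not independent of each other. Per array, the median of the members relative to the wild-type day 3 mean lay between -0.04 and 0.02 (log2) on the wild-type arrays and between -0.08 and -0.04 on the BATF-/- arrays.

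**Figure D4:**
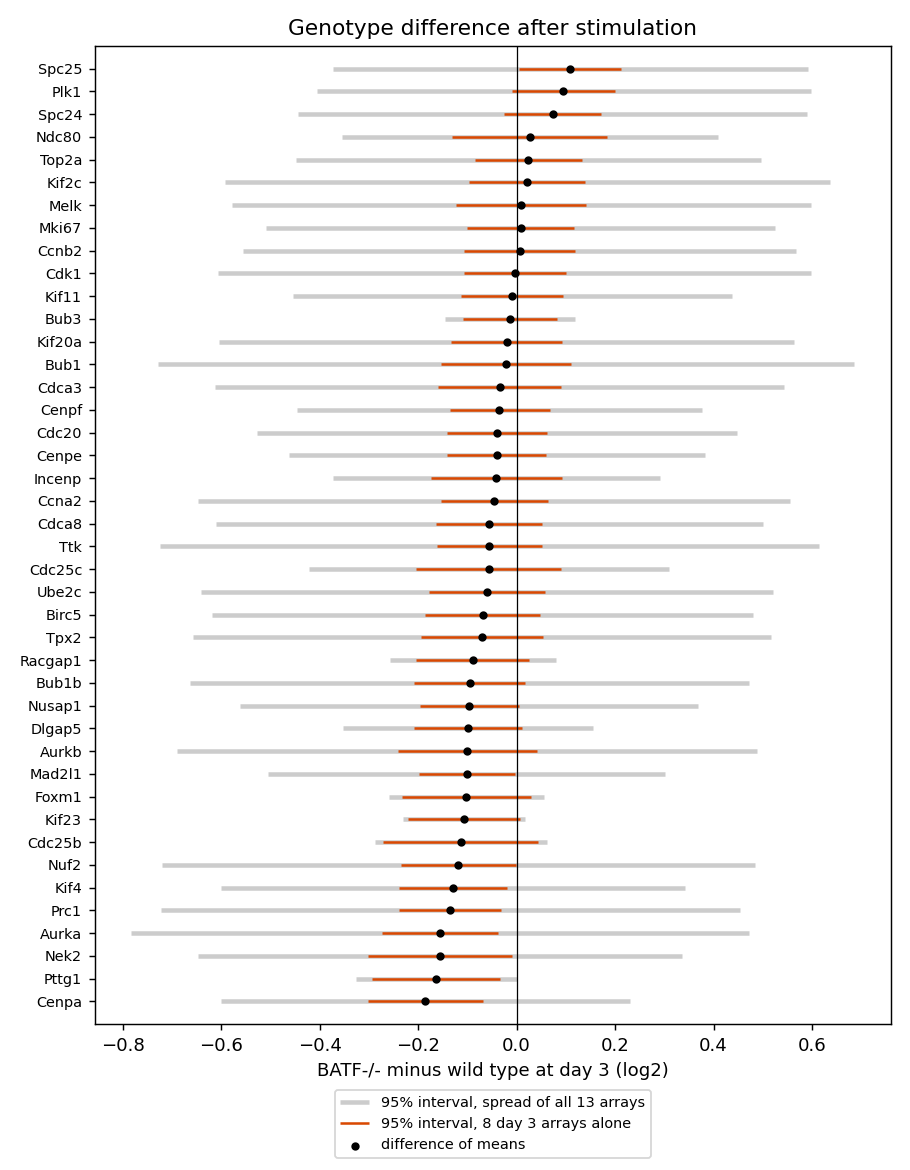
BATF-/- minus wild type at day 3 (log2) for the 42 members, sorted, with the difference of group means (black points), the 95% interval from the fit to all 13 arrays (grey) and the interval from the 8 day 3 arrays alone (orange). The points run from -0.19 (Cenpa) to 0.11 (Spc25), every grey bar includes 0, and no orange bar goes beyond -0.30 or 0.21.

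Replicates of stimulated cells had smaller SDs for these genes than for the typical gene, and replicates of naive cells had larger ones. The typical gene is the median over genes of all intensities, and genes of like intensity were not compared separately. The median SD of the members was 0.05 (log2) among the 4 wild-type day 3 arrays and 0.04 among the 4 BATF-/- day 3 arrays, against 0.09 over all genes in each group. Among the 2 wild-type naive arrays it was 0.22, against 0.09 over all genes. Among the 3 BATF-/- naive arrays it was 0.77, against 0.13 over all genes. Relative to the wild-type naive mean, the median of the members was -0.15 and 0.15 on the wild-type naive arrays and 1.04, -0.43 and -0.05 on BATF-/- naive replicates 1, 2 and 3.

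BATF-/- naive replicate 1 thus stood apart for mitosis genes. It was the highest of the 5 naive arrays for 38 of 42 members, as it was for 26.2% of all genes, and the 4 exceptions were Cdc25b, Foxm1, Kif23 and Pttg1. BATF-/- naive replicate 2 was the lowest for 35 members, against 18.2% of all genes, and both held for 34 members, against 9.16%. In replicate 1 the members reached a median of 28% of their wild-type day 3 intensity, compared with 8.83% and 11.8% in replicates 2 and 3 and with 10.2% and 13.9% in the wild-type naive arrays. The same array held more RNA of other cell types. The mean log2 intensity of 11 measured neutrophil markers of 12 listed was 8.72 in replicate 1, 4.87 and 5.95 in replicates 2 and 3, and 5.51 and 5.33 in the wild-type naive arrays. Their summed intensity was 19295 in replicate 1, 514 to 1897 in the other BATF-/- naive arrays, 822 to 909 in wild-type naive arrays, 196 to 205 in wild-type day 3 and 197 to 204 in BATF-/- day 3 arrays.

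Mpo and Prtn3, granule genes of neutrophil precursors, measured 12.09 and 13.25 in replicate 1, against 6.96 to 9.03 and 7.45 to 9.82 in replicates 2 and 3. Klf1, a regulator of red cell precursors, measured 9.57 in replicate 1, 7.62 and 8.17 in replicates 2 and 3, and 8.28 and 8.81 in wild type. Of the other measured erythroid markers, Epor and Slc4a1 were also highest of the naive arrays in replicate 1. Alas2 (7.07 in replicate 1 and 7.51 in replicate 3) and Hba-a1 (3.53 and 3.79) were higher in replicate 3. The lists for NK cells, monocytes, erythroid cells, platelets and dendritic cells also had their highest naive mean in replicate 1, while those for B cells and plasma cells had it in replicate 3. Summed intensities of these lists were higher on every naive array than on any day 3 array. They were 6982 to 11752 against 178 to 216 for plasma cells, and 1485 to 4266 against 346 to 407 for B cells. For NK cells they were 940 to 3333 against 106 to 142. The CD4 T cell list went the other way, with 126 to 139 against 158 to 182. The 7 measured CD8 T cell markers of 9 listed were lowest on average in replicate 1, with a mean of 11.69, against 12.13 to 12.26 in the other 4 naive arrays and 11.92 to 12.07 at day 3. Their summed intensity ranged from 38309 to 41221 in wild-type naive, from 28810 to 40569 in BATF-/- naive, from 34772 to 36730 in wild-type day 3 and from 34211 to 36599 in BATF-/- day 3 arrays. No marker of either list was at 0, and of the 11 neutrophil markers 6 in wild type and 7 in BATF-/- cells had day 3 means under the dim limit. The part of these other cells in the naive values of the mitosis genes was not tested.

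**Figure D5:**
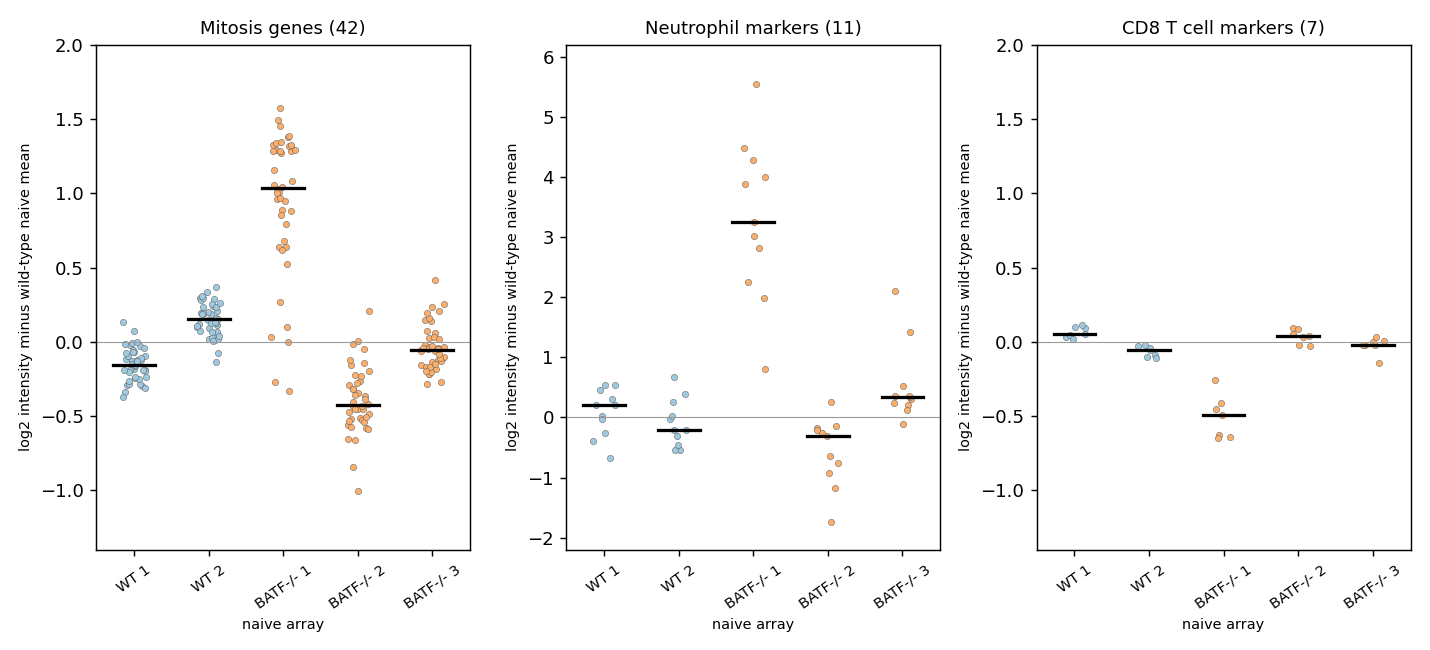
Log2 intensity minus the wild-type naive mean on each of the 5 naive arrays, with 1 point per gene and a bar at the median, for 42 mitosis genes, 11 neutrophil markers (on a wider scale) and 7 CD8 T cell markers. The median of the mitosis genes is 1.04 on BATF-/- naive replicate 1 and lies between -0.43 and 0.15 on the other arrays; on replicate 1 the neutrophil markers are also highest and the CD8 T cell markers lowest.

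Between naive BATF-/- and naive wild-type cells, 0 of 42 members passed (limma; 1 at an unadjusted p under 0.05, against 13.6% of all genes), where 1.08% of all genes passed. The median difference was 0.19 (log2; 0.00 over all genes), and 35 members were positive. Without BATF-/- naive replicate 1 the median was -0.24 and 40 members were negative, so the direction rests on that array, and with array quality weights the median was -0.04. Its size rests on the other naive arrays too, with 0.50 and 0.32 without BATF-/- replicates 2 and 3, 0.39 without wild-type replicate 2, and 0.05 (24 positive and 18 negative) without wild-type replicate 1. The largest positive differences were those of Aurkb (0.49 ± 0.35, adjusted p = 0.581) and Nek2 (0.48 ± 0.29, adjusted p = 0.513), a centrosome kinase. Nek2 measured 6.92 and 7.17 in wild type and 8.38, 6.90 and 7.28 in BATF-/- cells, and its high value was that of replicate 1. The largest negative differences were those of Cdc25c (-0.25 ± 0.22, adjusted p = 0.656) and Cdc25b (-0.17 ± 0.10, adjusted p = 0.515). Cdc25c measured 5.44 and 5.48 in wild type and 5.73, 4.61 and 5.27 in BATF-/- cells, with replicate 1 above and replicates 2 and 3 below both wild-type arrays. The 95% intervals had a median half-width of 0.64 in this fit, which shares its spread with the day 3 arrays, and of 1.06 with the 5 naive arrays alone, so differences smaller than these could not be told from 0 for a typical member.

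Racgap1, the GTPase-activating partner of Kif23 in centralspindlin, was the member nearest to a genotype call. It measured 7.95 and 8.03 in wild-type naive and 8.61, 8.19 and 8.41 in BATF-/- naive cells, so that it was the only member whose naive groups did not overlap, as was the case for 24.5% of all genes. At day 3 it measured 10.17, 10.23, 10.19 and 10.10 in wild type and 10.16, 10.10, 10.03 and 10.05 in BATF-/- cells, and the groups overlapped. The naive difference was 0.41 ± 0.10 (adjusted p = 0.0843). It passed without BATF-/- naive replicate 2 (0.52, adjusted p = 0.00762) and with array quality weights (0.40, adjusted p = 0.0238). It also passed after another quantile normalisation (0.46, adjusted p = 0.04). Over its 21 alternatives the adjusted p ranged from 0.00762 to 0.776, and the highest was that of the naive arrays alone, where it did not pass. Its rise on stimulation was 2.19 ± 0.10 in wild type and 1.68 ± 0.08 in BATF-/- cells.

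The size of the response was then compared between the genotypes, with the difference of both changes as the test. No member passed (0 of 42; 1 at an unadjusted p under 0.05, against 11.9% of all genes), where 0.649% of all genes passed. Racgap1 had the lowest adjusted p (-0.50 ± 0.13, adjusted p = 0.112), and it passed without BATF-/- naive replicate 2 (-0.61, adjusted p = 0.0154) and with array quality weights (-0.51, adjusted p = 0.0154), within a range from 0.0154 to 0.421 over 20 alternatives. For the 41 members that rose, the BATF-/- change had a median of 92.1% of the wild-type change (log2 changes), from 77% (Racgap1) to 109% (Bub3), and was the smaller for 37 of them. Without BATF-/- naive replicate 1 the median was 106%, and the BATF-/- change was the smaller for 5 members. The median also moved with the other naive arrays. It was 81.4% and 87.9% without BATF-/- naive replicates 2 and 3, and 96.4% and 87% without wild-type naive replicates 1 and 2. In these fits the BATF-/- change was the smaller for 39, 38, 28 and 37 members.

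Genes of cell division outside the set gave a wider picture of the same response. Of 125 further division genes 123 were measured, and 90 rose and 10 fell in wild type, with a median of 1.41. In BATF-/- cells 95 rose and 5 fell, with a median of 1.35. Over all genes 22.4% rose and 23% fell in wild type, and 23.8% rose and 23.2% fell in BATF-/- cells. These shares also apply to the counts of the smaller groups below. None of the 123 passed in either genotype contrast or in the difference of the changes in the fit to all arrays (limma; 11 at an unadjusted p under 0.05 at day 3, 13 in naive cells and 9 for the difference, against 12.6%, 13.6% and 11.9% of all genes). With the 8 day 3 arrays alone 4 of the 123 passed, each lower in BATF-/- cells, where 3.79% of all genes passed. They were Tfdp2 (-0.35 ± 0.06, adjusted p = 0.0142), Cdc14b (-0.27 ± 0.05, adjusted p = 0.0169), Psrc1 (-0.30 ± 0.06, adjusted p = 0.0246) and Rbl2 (-0.26 ± 0.05, adjusted p = 0.0247). Of 21 condensin and cohesin genes, which fold chromosomes and hold sisters together, 15 rose and 2 fell in wild type. Sgo2a, which protects centromeric cohesin, rose most (3.74 ± 0.26), and the falls were those of the cohesin loader Nipbl (-0.70 ± 0.08) and of Pds5b (-0.30 ± 0.08). Of 16 genes of the anaphase-promoting complex and its regulators 9 rose and 2 fell, with a median of 0.23. Fbxo5 (Emi1, an inhibitor of the complex) rose most (2.24 ± 0.15), and the subunits Anapc10 (-0.32 ± 0.07) and Cdc26 (-0.25 ± 0.09) fell.

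Other kinetochore genes followed the members, with 25 of 31 higher and 1 lower in wild type. Kntc1, which recruits dynein to kinetochores, rose most (3.31 ± 0.22), and Zwint, a partner of the Knl1 scaffold, fell (-0.37 ± 0.09). Of 28 further spindle and cytokinesis genes 26 rose and 1 fell. Psrc1 rose most (4.29 ± 0.34), and Numa1, which focuses spindle poles, fell (-0.36 ± 0.07). Of 15 genes of entry control 9 rose, led by Gas2l3 (4.31 ± 0.37), and 3 fell, namely Cdk7, the kinase that activates Cdk1 (-0.65 ± 0.07), Cdc14b (-0.39 ± 0.10) and Ensa (-0.21 ± 0.06). Among 12 genes of B-Myb, MuvB and DREAM, the regulators of these promoters, 6 rose and 1 fell in wild type. Mybl2 (B-Myb) rose most, by 1.73 ± 0.26, and the MuvB subunit Lin52 fell (-0.37 ± 0.13).

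Outside division proper, 4 kinesins of cargo transport did not share the pattern, with 1 rise (Kif3a, 1.09 ± 0.14) and 2 falls (Kif1b, -2.10 ± 0.15, and Kif5b, -0.49 ± 0.08) in wild type. These 4 genes are too few to tell from the shares over all genes (22.4% rose and 23% fell). Among 9 genes that slow the cell cycle or maintain quiescence, 5 rose and 3 fell in wild type. Cdkn1a (p21) rose by 4.61 ± 0.14 in wild type and 4.22 ± 0.13 in BATF-/- cells. The quiescence genes Klf2, Btg1 and Foxo1 fell in wild type (-1.98 ± 0.13, -1.18 ± 0.07 and -0.55 ± 0.15) and in BATF-/- cells (-1.54 ± 0.12, -1.38 ± 0.06 and -0.46 ± 0.13). Btg2 fell in BATF-/- cells (-1.28 ± 0.22) and was -0.32 ± 0.25 in wild type, which did not pass. Cdkn2c (p18, an inhibitor of Cdk4 and Cdk6) was the only gene of these lists with a genotype call in the fit to all arrays, in naive cells. At day 3, with the day 3 arrays alone, Kif3a (-0.31 ± 0.06, adjusted p = 0.0161) and Klf2 (0.27 ± 0.06, adjusted p = 0.0241) also passed. Cdkn2c measured 7.89 and 7.93 in wild-type naive and 8.63, 8.41 and 8.57 in BATF-/- naive cells, a difference of 0.63 ± 0.08 (adjusted p = 0.00199), and the groups did not overlap. At day 3 it measured 9.98, 10.03, 10.06 and 10.06 in wild type and 10.16, 9.98, 9.99 and 10.03 in BATF-/- cells, where the genotypes overlapped. The difference held without BATF-/- naive replicate 1 (0.58, adjusted p = 0.00431) and did not pass with the 5 naive arrays alone (adjusted p = 0.339, the highest of its alternatives, the lowest being 0.000517).

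Likeness of profile was described over the 13 arrays as Pearson's r with the mean of the 42 members, which mostly reflects the contrast of naive and day 3 arrays. The 3 genes outside the set with the highest r were Spag5 (0.9995), Ckap2 (0.9995) and Spdl1 (0.9993). Spag5 (astrin, at the spindle and kinetochore) measured 5.96 and 6.28 in wild-type naive and 7.11, 5.55 and 5.98 in BATF-/- naive cells and, at day 3, 9.40, 9.33, 9.33 and 9.26 in wild type and 9.18, 9.21, 9.19 and 9.18 in BATF-/- cells, and so repeated the high value of BATF-/- naive replicate 1. Among members the lowest r was that of Pttg1 (-0.7818), followed by Cdc25b (0.9526), Foxm1 (0.9729) and Kif23 (0.9771), the same 4 genes that were not highest in that array.

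Other probe sets of the members mostly moved with those used. The 42 genes have 95 probe sets, 28 genes have more than 1, and 82 probe sets lay above the dim limit. Of these 82, 77 were higher at day 3 in wild type, 72 of them by at least 1 (log2), and the 5 that were lower belong to Pttg1 (3) and Bub3 (2).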

How the data were processed

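The deposited values are probe set intensities of biotin-labelled RNA, which the authors processed with RMA (background correction, normalisation between arrays and summary per probe set), as the submitters' processing notes say, with version and settings not given in the sources used here. The intensities were on a linear scale with array medians of 31.5 to 32.5, were converted to log2 and were not normalised again. Of 45101 probe sets 34958 name 1 gene, 932 several and 9211 none, and for 34754 of the 34958 the gene ID was found in RefSeq (GRCm38.p6). Probe sets whose names end in x, s or a can bind related transcripts.

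Group means of all 18194 genes were fitted with limma 3.58.1 (R 4.3.3; 9 residual and 3.702 prior degrees of freedom), with two-sided tests and Benjamini-Hochberg adjustment over all genes at 0.05; the code was tested on simulated data. The members and lists were chosen with earlier results of these data known. Values on every array are given for the largest and smallest change of each role, for falls, and for the 2 largest differences each way between genotypes; Cdk1 and Spag5 were added. Of the other division genes the largest rise and every fall in wild type are named per group, with genotype calls. The number of arrays limits the precision. Alternatives were another quantile normalisation, median centring, leaving out dim probe sets, averaging a gene's probe sets, probe sets without suffix, an intensity trend, array weights, a replicate block, the compared groups alone and leaving out each array.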

Additional observations from a re-analysis of the deposited data

Results flagged for a closer look

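Among the 84 groups of 4 day 3 arrays (42 members in each genotype), 4 held an array far from the other 3 by Dixon's ratio of gap to range (critical value 0.829), and chance gives about 1 in 20 groups. Bub1b measured 9.90 on wild-type day 3 replicate 4 and 10.03 to 10.05 on the others (ratio 0.859). Cenpe measured 9.86 on the same array and 9.93 to 9.94 on the others (0.897). Nuf2 measured 9.58 on wild-type day 3 replicate 1 and 9.69 to 9.71 on the others (0.855). Ndc80 measured 8.84 on BATF-/- day 3 replicate 2 and 8.95 to 8.96 on the others (0.938).

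Among the genes set beside the members, the change of Cdkn2c on stimulation differed between the genotypes, by -0.62 ± 0.10 (SE; BATF-/- minus wild type, limma adjusted p = 0.0139). It did not pass with the replicate block (-0.62, adjusted p = 0.0704) or without wild-type naive replicate 1 (-0.60, adjusted p = 0.0628) or 2 (-0.64, adjusted p = 0.0513), within a range from 0.00226 to 0.0704 over its alternatives.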

How the results depend on the processing

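The counts of rises and falls on stimulation were 41 and 1 in both genotypes under the alternatives that kept all 42 members, and 41 and 0 to 1 when single arrays were left out, and no member passed between the genotypes at day 3 under any alternative run. The size of the rises was less stable. Median changes were 2.62 in wild type and 2.44 in BATF-/- cells with averaged probe sets, against 3.11 and 2.81. In naive cells 1 member, Racgap1, passed after another quantile normalisation and with array quality weights, and leaving out single arrays gave 0 to 1. For the difference of the changes, 1 member, Racgap1, passed with array quality weights, and leaving out single arrays gave 0 to 1. With probe sets without suffix, which left 34 members (32 rises and 1 fall in each genotype), Cdca3 was read from a dim probe set and changed by -0.05 in BATF-/- and 0.02 in wild-type cells. With the replicate number as a block, 41 members rose, 1 fell and 0 passed in each genotype contrast, as in the fit without it. In the labels, arrays share only a number. Deviations of same-numbered arrays correlated at -0.09 to 0.04 at day 3, and not every day 3 array correlated best with its own number. In naive cells they correlated at -0.26 to -0.24. With 2 wild-type naive arrays the deviations mirror each other, so these values cannot decide whether naive arrays were paired. The median naive difference was -0.04 with array weights and -0.24 without BATF-/- naive replicate 1, against 0.19. Only 2 wild-type naive arrays and the spread of the 3 BATF-/- naive arrays limit what the naive comparison can detect.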
